A study of Mus musculus with 6 samples.

Results

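Peaks of open chromatin assigned to genes of the Sox and Fox transcription factor families were compared between mouse embryonic stem cells lacking Lmna and their controls. The members were all peaks of the authors' deposited table of differential accessibility whose gene symbol was Sox or Fox followed by the family's letter and number, with Sox2 and Foxd3 left out. There were 261 such peaks at 49 genes, of 65535 listed peaks at 17625 genes, comprising 77 peaks at 14 Sox genes and 184 peaks at 35 Fox genes. A peak belongs to a gene here because the authors assigned it to that gene's transcription start site (TSS), so a member can lie inside another gene or far from the one it is named for. The values describe DNA around the genes that encode these factors, not the sites the factors bind.

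The assay was ATAC-seq, which uses the transposase Tn5 to insert adapters into open DNA. The first group carried a knockout of Lmna, the gene of lamins A and C (3 libraries), and the other cells were labelled WT for this gene and called control (3 libraries). Both groups shared the E14 background with an Nkx2-5-EmGFP reporter, were cultured with leukemia inhibitory factor on mitomycin-treated fibroblast feeders, and were preplated to reduce the feeders, per the labels' protocols. The labels give neither the age or passage of the cells nor whether the knockout is 1 clone or several, and they do not say that the libraries of a group were separate cultures, so the spread behind the deposited p-values may be technical. By its title, the study asks about lamin A/C in the chromatin of naive pluripotent cells and in cardiovascular fate.

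Sox proteins bind DNA through a high-mobility-group (HMG) box that sits in the minor groove and bends the helix. Fox proteins bind through the forkhead domain, a winged helix, and some of them, such as the FoxA factors, can engage DNA in closed chromatin. Most members of both families are kept low in embryonic stem cells and are switched on when a lineage forms, while Sox2 and Foxd3, which were left out, are active in the pluripotent state. Many of these developmental genes start in CpG-rich promoters that are open before the gene is expressed.

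The start sites of the members had this CpG-rich character. RefSeq promoter sequences (GRCm38.p6, the assembly of mm10) were matched for 32 of the 49 genes, with 41 windows of the 250 bases before a TSS. These held a median of 17 CpG dinucleotides and a GC content of 62%, beside 6 and 52.4% over all 32851 RefSeq windows. A listed peak of the same gene overlapped the window in 20 cases, where the median was 21 CpG. The Sox motif AACAAT (or ATTGTT on the other strand) was found in 2 of the 41 windows, beside 9.42% of all windows, and the forkhead motif TGTTTAC (or GTAAACA) in 2 of 41, beside 3.17% of all windows. These matches describe letters only, and a match of one motif can share letters with a match of the other.

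The 4 promoters below are shown as examples: the 2 whose peaks had negative folds, and 2 with positive folds that differ in CpG content. Each is the 250 bases before the TSS on the gene's strand, with CpG dinucleotides in capitals. Foxo1 lies at chr3:52268087-52268336 (plus strand), the Foxp1 internal start at chr6:99266516-99266765 (minus), Foxa3 at chr7:19023540-19023789 (minus) and Sox14 at chr9:99876171-99876420 (minus).
Foxo1: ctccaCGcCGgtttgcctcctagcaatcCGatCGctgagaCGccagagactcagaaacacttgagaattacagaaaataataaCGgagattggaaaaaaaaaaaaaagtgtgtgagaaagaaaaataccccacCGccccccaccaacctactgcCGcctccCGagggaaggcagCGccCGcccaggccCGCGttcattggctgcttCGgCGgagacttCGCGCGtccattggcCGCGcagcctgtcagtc
Foxp1: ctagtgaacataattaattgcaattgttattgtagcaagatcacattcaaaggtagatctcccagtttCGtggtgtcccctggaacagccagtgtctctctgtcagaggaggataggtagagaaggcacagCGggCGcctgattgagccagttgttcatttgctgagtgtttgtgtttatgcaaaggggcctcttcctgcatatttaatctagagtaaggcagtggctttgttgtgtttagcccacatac
Foxa3: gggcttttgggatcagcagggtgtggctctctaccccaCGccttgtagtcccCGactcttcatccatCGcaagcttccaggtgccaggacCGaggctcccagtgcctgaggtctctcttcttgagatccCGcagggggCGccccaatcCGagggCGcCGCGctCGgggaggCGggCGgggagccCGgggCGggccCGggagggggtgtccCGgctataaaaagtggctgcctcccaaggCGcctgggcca
Sox14: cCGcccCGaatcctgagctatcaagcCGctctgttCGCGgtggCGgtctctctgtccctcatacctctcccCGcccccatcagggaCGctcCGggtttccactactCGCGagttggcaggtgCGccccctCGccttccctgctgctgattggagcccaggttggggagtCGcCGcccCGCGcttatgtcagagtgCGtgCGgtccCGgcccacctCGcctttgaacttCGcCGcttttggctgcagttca

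None of these 20 promoter peaks was called as changed between the groups. In the authors' deposited table, positive folds were found at 18 of them and negative folds at 2. The folds had a median of 0.4 and a range from -0.46 to 0.84. At Foxo1, a factor restrained by insulin and PI3K-AKT signalling, the deposited mean log2 concentration over the promoter was 6.8 in knockout cells and 6.26 in control cells (log2 fold 0.54, FDR 0.0556). Its window holds 20 CpG. The Foxp1 start inside the gene holds only 3 CpG, and its peak had deposited log2 concentrations of 6.26 in knockout and 5.82 in control cells (0.44, FDR 0.223). Foxa3, a FoxA factor of liver and testis, and Sox14, a SoxB factor of interneurons, were the 2 lower ones. Their deposited folds were -0.26 (6.33 in knockout and 6.59 in control cells, FDR 0.511) and -0.46 (5.11 in knockout and 5.57 in control cells, FDR 0.27).

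A peak is called gained or lost here when its deposited FDR is 0.05 or less and its log2 fold, knockout minus control, is above or below 0. Concentration is the authors' log2 mean signal of a peak in a group, and it is not divided by peak width, so levels of different peaks are not comparable per base. No value per library was used, so the spread within a group cannot be shown beside these means. The table lists 65535 of about 99078 tested peaks, those with p up to 0.422, and the other 33543 are not analysed here. The median log2 fold of all listed peaks was 0.49 and that of the members was 0.44, so a deposited fold near 0.49 is no departure from the rest of the table. Each call was therefore also read relative to 0.49, by centring all listed folds on it and retesting the listed peaks. The median over all tested peaks is unknown. Over listed marker peaks, naive pluripotency genes had 64 gained and 2 lost of 137 (46.7% gained, beside 16.1% of all listed peaks). On chromosome 14, where gains were frequent, lay 41 of these peaks with 31 of the gains, and outside it 33 of 96 were gained (34.4%, beside 11.8%). Embryonic fibroblast genes, which mark the feeders, had 2 gained and 2 lost of 41 at 15 of 16 genes (Col5a1 had no listed peak). That is 4.88% each, beside 16.1% gained and 2.26% lost of all listed peaks. Their median log2 fold was -0.4, with 19 positive and 22 negative folds. After centring 0 were gained and 7 lower, beside 4.47% and 8.93% of all listed peaks. Their summed linear concentration was 1010 in knockout and 939 in control cells. The part of feeder chromatin in the results was not tested.

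Of the 261 member peaks, 24 were gained and 4 were lost in the knockout cells, by the FDR of the authors' deposited table. That is 10.7% called, beside 18.4% of all listed peaks. Of all tested peaks 12.2% were called, but the number of tested member peaks is unknown, so the members have no matching share. Gained peaks were 9.2% of members against 16.1% of listed peaks, and lost ones 1.53% against 2.26%. Chromosome 14, where 57.6% of listed peaks were gained, holds 1 member peak, at Sox7. Without that chromosome, the listed peaks had 11.8% gained and 2.42% lost, beside 9.23% and 1.54% of the members. The members' gained share therefore lay below the listed background in both counts, by a margin that was not tested. At a stricter FDR of 0.01, 13 member peaks were gained and 0 lost (4.98% gained), beside 8.52% and 0.549% of all listed peaks. Gains had a median log2 fold of 1.23 (0.52 to 2.31), and the median over all listed gains outside chromosome 14 was 1.19.

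By gene the picture was closer to the background. A gained peak was assigned to 16 of the 49 genes (32.7%, beside 28.8% of all genes) and a lost one to 4 (8.16%, beside 7.19%). Foxp2 had both, and 30 genes had neither. Members had 5.33 listed peaks per gene, beside 3.72 over all genes. The 7 genes with 10 or more listed peaks, among them Foxp1 (25), Sox5 (21), Foxn3 (17) and Sox6 (16), held 124 of the 261 peaks and 8 of the 24 gains. A further 12 genes of the families in RefSeq had no listed peak assigned and are not analysed here, namely Foxb1, Foxe3, Foxi1, Foxm1, Foxn1, Foxp3, Foxr1, Foxs1, Sox9, Sox10, Sox15 and Sox21.

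Fox genes, with most of the member peaks, also held most of the calls. Of 184 Fox peaks 20 were gained (10.9%) and 2 lost (1.09%), and of 77 Sox peaks 4 were gained (5.19%) and 2 lost (2.6%). All listed peaks had 16.1% gained and 2.26% lost, and those outside chromosome 14 had 11.8% and 2.42%. The Fox gained share was thus close to the share outside chromosome 14. The median deposited log2 fold was 0.48 over Fox peaks and 0.37 over Sox peaks. The gap between the families was not tested, and it rests on 4 Sox gains. After centring and retesting, 6 Fox and 0 Sox peaks remained gained, beside 4.47% of all listed peaks.

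**Figure D1:**
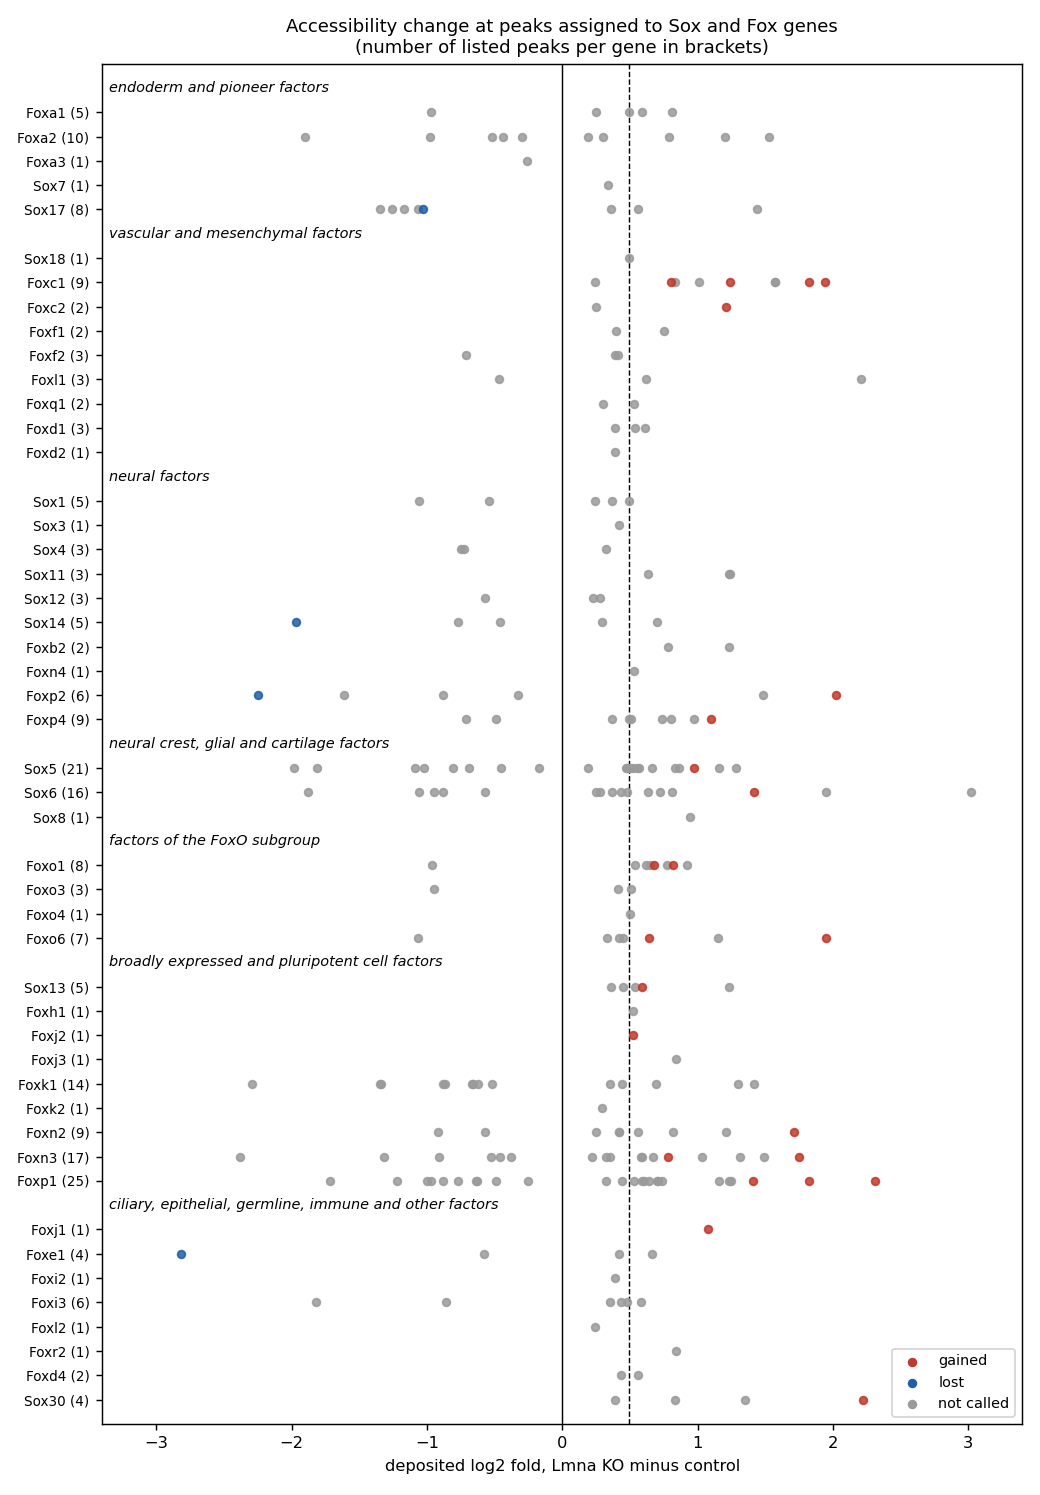
Deposited log2 fold (Lmna knockout minus control, horizontal axis) of the listed peaks of the genes shown, 1 row per gene, ordered by role, with red points gained, blue points lost and grey points not called at an FDR of 0.05. The dashed line is the median of all listed peaks, 0.49, and the Foxc1 row lies wholly right of 0 while the rows of Foxp1, Sox5 and Foxn3 scatter to both sides.

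Endoderm factors had 0 gained of 25 listed peaks, beside 16.1% of all listed peaks and 11.8% of those outside chromosome 14. This gap was not tested. The list held Foxa1, Foxa2 and Foxa3, pioneer factors of gut and liver, and Sox7 and Sox17, SoxF factors of endoderm and blood vessels. Of its 25 listed peaks 13 had a positive fold (52%, beside 69.1% of all listed peaks) and 12 a negative fold. The median was 0.19, and 1 peak was lost (4%, beside 2.26% of all listed peaks). This one, chr1:4543597-4544830 in intergenic DNA 46.2 kb upstream of Sox17, had a deposited log2 fold of -1.03 (FDR 0.0198) by the authors' deposited table. Its mean log2 concentration was 4.4 in knockout and 5.42 in control cells. Relative to the median of all listed peaks it was lower by more, with a centred log2 fold of -1.52 (adjusted p = 0.000352, normal retest of listed peaks).

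The other peaks of Sox17 were mixed. Its promoter, the member peak of highest concentration among those within 1 kb of a TSS, had deposited log2 concentrations of 7.67 in knockout and 7.3 in control cells (0.36, FDR 0.0707). A strong peak 74.1 kb upstream was at 6.49 in knockout and 5.94 in control cells (0.56, FDR 0.0716). Of the 5 negative folds, 4 came from weak peaks whose deposited concentration was 2.35 or less in knockout cells and 3.61 or less in control cells, and none of these 4 was called. The lost peak therefore lay between 2 stronger peaks of the locus with positive folds.

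No promoter of the other endoderm factors was called. The nearest listed peak of Foxa1 was at 5.12 in knockout and 4.53 in control cells (log2 fold 0.59, FDR 0.251), that of Foxa2 at 5.82 in knockout and 5.63 in control cells (0.19, FDR 0.628), and that of Sox7 at 5.73 in knockout and 5.39 in control cells (0.34, FDR 0.393). At Foxa2 the 10 deposited folds ran from -1.9 to 1.53 with none called. Relative to the median of all listed peaks, 3 of them passed as lower after centring (adjusted p = 0.0136, 0.0187 and 0.0271). The Foxa3 promoter did so too (centred log2 fold -0.75, adjusted p = 0.0313). A list of endoderm genes known to act with or below these factors had 11 gained and 1 lost of 45 listed peaks (24.4% gained, beside 16.1% of all listed peaks and 11.8% of those outside chromosome 14). Its median log2 fold was 0.54, and 2 of the gains were at Gata4 on chromosome 14. Lama1, a laminin chain of the basement membrane, was the first of them by FDR, with 5.47 in knockout and 3.45 in control cells (2.02, FDR 2e-05), then Dab2 (1.54, FDR 0.00119), an endocytic adaptor that also lost 1 peak (-2.14), all in the authors' deposited table. After centring, this list had 2 gained and 2 lost peaks, beside 4.47% gained and 8.93% lower of all listed peaks.

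**Figure D2:**
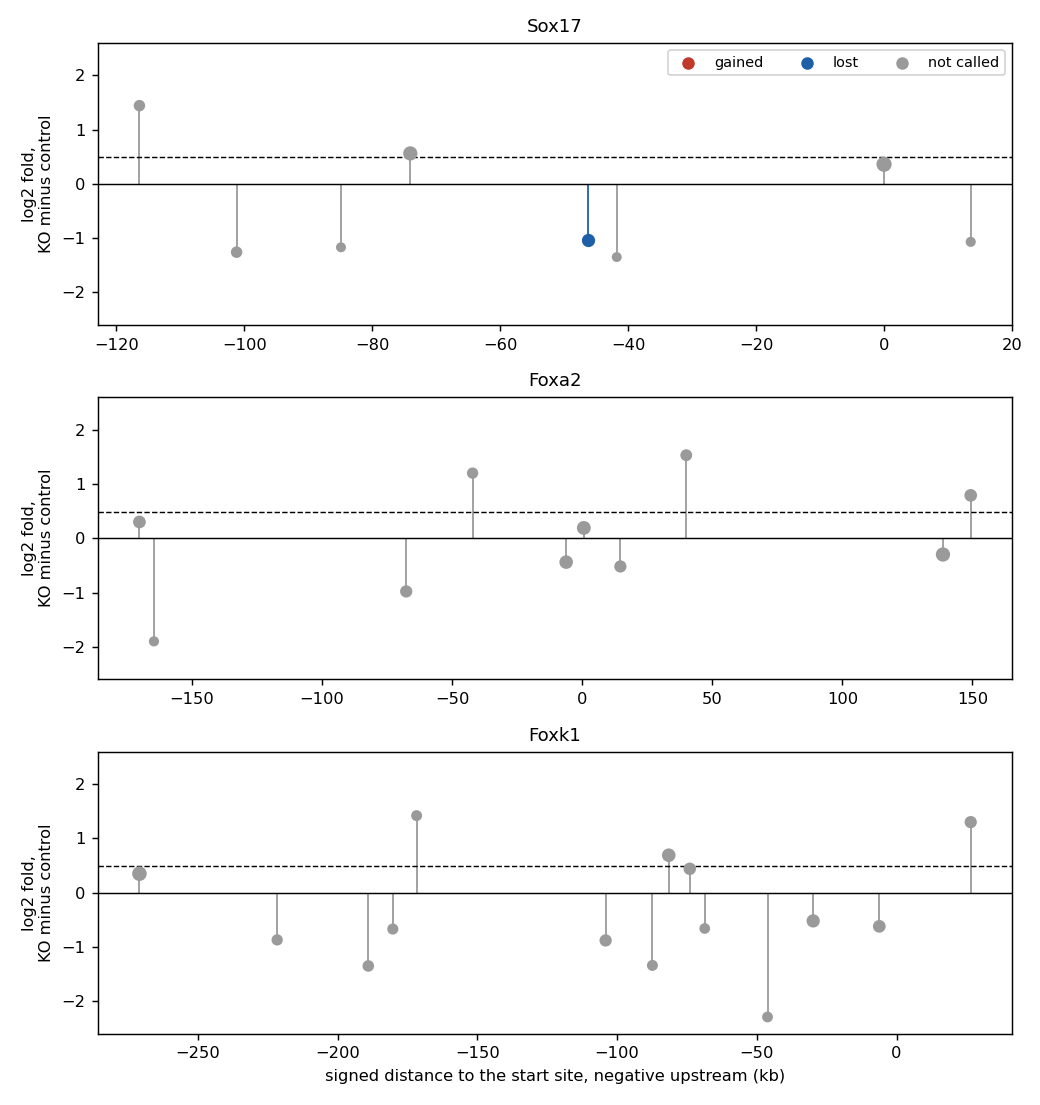
Deposited log2 fold (vertical axis) of every listed peak of Sox17, Foxa2 and Foxk1 against its signed distance to the TSS in kb, with point area growing with concentration and the dashed line at 0.49, the median of all listed peaks. The lost Sox17 peak stands 46.2 kb upstream at -1.03, the promoter at 0.36, Foxa2 runs from -1.9 to 1.53 with none called, and Foxk1 has 9 of 14 points below 0.

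Among vascular and mesenchymal factors, gains came mainly from Foxc1. The 9 genes of this list with a listed peak had 26 peaks. Of these, 24 had a positive fold (92.3%, beside 69.1% of all listed peaks). Gained were 5 (19.2%, beside 16.1% of all listed peaks and 11.8% of those outside chromosome 14). Foxc1, a factor of paraxial mesoderm, vessels and the eye, held 4 of the 5 and had a positive fold at all 9 of its peaks, with a median of 1.24. In the authors' deposited table the gained peaks were at chr13:31915113-31916103 (5.86 in knockout, 4.62 in control cells, log2 fold 1.24, FDR 0.000435) and at chr13:31901579-31902405 (4.78 in knockout, 2.84 in control cells, 1.94, FDR 0.0026). Both lie in intron 9 of 10 of Gmds, the neighbouring gene for an enzyme of fucose synthesis, 108.5 and 94.9 kb past the Foxc1 start.

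The remaining Foxc1 gains lay on both sides of the gene. The deposited values were 4.66 in knockout and 2.84 in control cells at chr13:31728528-31729324, an intergenic peak 77.3 kb upstream (log2 fold 1.82, FDR 0.00712). They were 6.22 in knockout and 5.42 in control cells over the 3' UTR at chr13:31810574-31812122 (0.8, FDR 0.0108). Peaks 51.9 and 44.8 kb upstream had deposited folds of 1.57 each and narrowly missed the threshold (FDR 0.0501 and 0.0593). Within 250 kb of the Foxc1 start there were 16 listed peaks of any gene. A positive fold was found at 14 of them, beside 69.1% of all listed peaks. The 4 gained ones were all assigned to Foxc1. Gained shares were 16.1% of all listed peaks and 11.8% of those outside chromosome 14. The window was placed around the member gene with most gained peaks, so its gained count follows from that choice. The 3 peaks of Foxf2 and the peak of Foxq1 in that window, forkhead genes of the same cluster, had deposited folds from -0.71 to 0.41, none called. After centring and retesting, 1 Foxc1 peak kept its call (chr13:31901579-31902405, centred log2 fold 1.45, adjusted p = 0.044), and the one of smallest FDR did not (0.75, adjusted p = 0.0676).

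**Figure D3:**
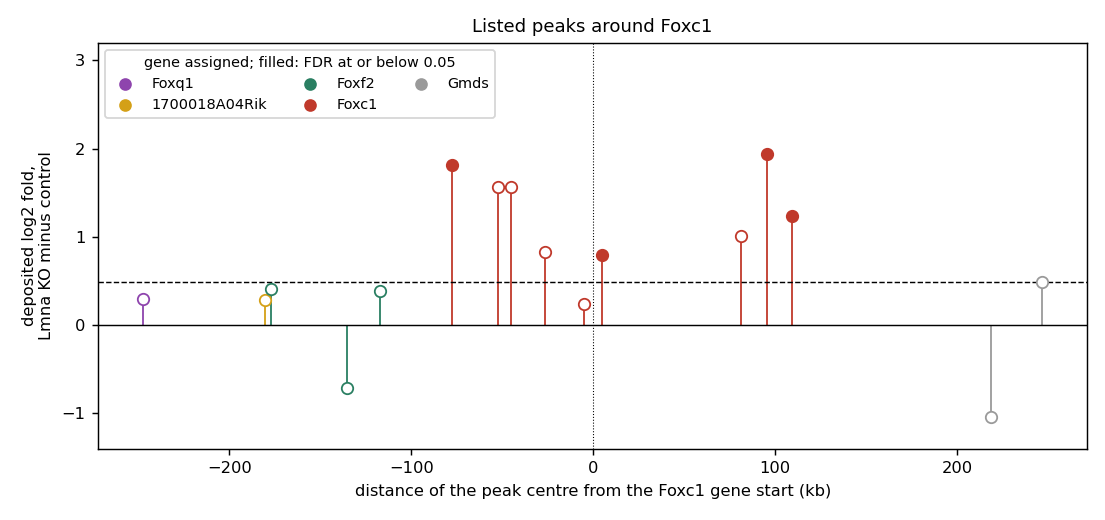
Deposited log2 fold (vertical axis) of the 16 listed peaks within 250 kb of the Foxc1 gene start (horizontal axis, kb from that start), coloured by assigned gene, with filled points called at an FDR of 0.05 and the dashed line at 0.49, the median of all listed peaks. All 9 Foxc1 points lie above 0, 4 of them filled, and the Foxf2 and Foxq1 points lie between -0.71 and 0.41.

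Other genes of this list changed at 1 site or at none. Foxc2, a close relative of Foxc1 needed in lymphatic vessels, gained a peak 2.4 kb upstream of its TSS, with 5.19 in knockout and 3.98 in control cells in the authors' deposited table (log2 fold 1.21, FDR 0.0149, centred adjusted p = 0.22). Its promoter was at 5.73 in knockout and 5.48 in control cells (0.25, FDR 0.603). Promoters of Sox18, a SoxF factor of blood and lymph vessels, Foxf1, a factor of splanchnic mesoderm, Foxd1, a factor of kidney stroma, and Foxd2 had deposited folds of 0.49, 0.4, 0.54 and 0.39, and none was called (smallest FDR 0.0749). Foxl1, a factor of gut mesenchyme, had a promoter fold of -0.47 (FDR 0.589). The nearest listed peaks of Foxq1 and Foxf2 lay 1.7 and 3.5 kb away, at folds of 0.3 and 0.41.

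FoxO genes, the forkhead subgroup restrained by PI3K-AKT signalling, had 4 gained and 0 lost of 19 listed peaks. That is 21.1% gained, beside 16.1% of all listed peaks and 11.8% of those outside chromosome 14. Foxo6, a member best known from the brain, held 2 of the 4 gains. An intronic peak 15.7 kb into the gene at chr4:120270981-120271691 had 5.46 in knockout and 3.52 in control cells in the authors' deposited table (log2 fold 1.95, FDR 1.71e-05), and it kept its call after centring (1.46, adjusted p = 0.00441). The Foxo6 promoter had 6.84 in knockout and 6.19 in control cells (0.64, FDR 0.0232), the 1 gained peak of all 40 member peaks within 1 kb of a TSS. It lay 0.15 above the median of all listed peaks and lost its call when centred.

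Foxo1 gained on either side of the gene, at chr3:52253875-52254585, 13.8 kb upstream (6.65 in knockout and 5.97 in control cells, log2 fold 0.68, FDR 0.0257), and at chr3:52390253-52391290, 121.9 kb past the start (5.86 in knockout and 5.03 in control cells, 0.82, FDR 0.0193), in the authors' deposited table. Of its 8 listed folds 7 were positive, between 0.54 and 0.92, and neither gain passed after centring. The promoters of Foxo3 (7.51 in knockout, 7.09 in control cells, FDR 0.408) and Foxo4 (5.5 in knockout, 5.0 in control cells, FDR 0.284) were not called in that table. Among regulators of FoxO proteins in the PI3K-AKT pathway, 9 of 108 listed peaks were gained and 3 lost, with a median log2 fold of 0.44. The shares were 8.33% and 2.78%, beside 16.1% and 2.26% of all listed peaks and 11.8% and 2.42% outside chromosome 14. The gains included the promoter of Ywhaz, a 14-3-3 protein that can hold FoxO factors in the cytoplasm. It was at 7.55 in knockout and 6.92 in control cells in the same deposited table (log2 fold 0.63, FDR 0.00368).

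Broadly expressed factors and those active in pluripotent cells had 8 gained and 0 lost of 74 peaks (10.8% gained, beside 16.1% of all listed peaks and 11.8% of those outside chromosome 14). They included the 2 member peaks of smallest FDR. Foxn3, a forkhead repressor linked to the cell-cycle checkpoint, had the smallest FDR of all members. The peak, chr12:99360898-99362548, lies 3.9 kb upstream of an annotated start inside the locus, over an exon of a transcript with no gene ID in the table. It had 7.06 in knockout and 5.31 in control cells in the authors' deposited table (log2 fold 1.75, FDR 2.38e-14, centred adjusted p = 5.36e-07). A second Foxn3 peak, intronic, had 6.68 in knockout and 5.9 in control cells (0.78, FDR 0.0042) and did not pass when centred (0.29, adjusted p = 0.502). Another, weak Foxn3 peak narrowly missed the threshold in the other direction (0.73 in knockout, 3.11 in control cells, -2.38, FDR 0.0511).

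Foxn2 gained 1 of its 9 listed peaks, chr17:88346696-88347380, 93.3 kb upstream in an intron of a transcript with no gene ID. It was at 6.22 in knockout and 4.51 in control cells in the authors' deposited table (log2 fold 1.71, FDR 6.8e-08), and it passed after centring (1.22, adjusted p = 0.000715). The Foxn2 promoter was at 7.26 in knockout and 7.01 in control cells (0.25, FDR 0.327). Foxj2 has a single listed peak, 7.9 kb upstream, which was strong and small in change, 7.81 in knockout and 7.29 in control cells in that table (0.52, FDR 0.00793). At 0.03 above the median of all listed peaks it did not pass after centring. Sox13, a SoxD factor, gained a peak 3.9 kb upstream of one of its starts (6.46 in knockout, 5.86 in control cells, 0.59, FDR 0.0397, centred fold 0.1). The single listed peak of Foxh1, the partner of SMADs in Nodal signalling, was at 4.66 in knockout and 4.14 in control cells and was not called in the deposited table (0.52, FDR 0.405).

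Foxp1, for which a splice form specific to embryonic stem cells has been described, had 3 gained peaks close together in 1 intron. In the authors' deposited table they were chr6:99378673-99379607 (5.9 in knockout, 4.48 in control cells, log2 fold 1.41, FDR 0.000608), chr6:99383834-99384316 (4.22 in knockout, 1.9 in control cells, 2.31, FDR 0.00562) and chr6:99388970-99389981 (5.42 in knockout, 3.6 in control cells, 1.82, FDR 4.68e-05). They lie 55.7, 51.0 and 45.4 kb past the start. The last of these and the weak middle one passed after centring (adjusted p = 0.00886 and 0.048), while the first narrowly did not (adjusted p = 0.0517). Of the 25 Foxp1 peaks, the most of any member gene, 3 were gained. Gained shares were 16.1% of all listed peaks and 11.8% of those outside chromosome 14. A positive fold was found at 15 of the 25 and a negative fold at 10, from -1.72 to 2.31. Of all listed peaks 69.1% had a positive fold. All 3 gains lay within intron 1 of 18.

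Foxk1, a forkhead factor of muscle progenitors and starvation responses, had the most negative median among the 7 genes with 10 or more listed peaks. Of its 14 peaks 9 had a negative fold, with a median of -0.64 and a range from -2.29 to 1.42, and none was called. The largest negative value belonged to a weak peak (0.91 in knockout, 3.2 in control cells, FDR 0.0655), and the strongest, 270.9 kb upstream in an intron of Sdk1, was at 6.84 in knockout and 6.49 in control cells (0.35, FDR 0.223) in the deposited table. After centring, 4 of the 14 passed as lower (adjusted p from 0.0209 to 0.0493), beside 8.93% of all listed peaks.

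Neural factors had calls in both directions, with 3 gained and 2 lost of 59 listed peaks at 11 genes. That is 5.08% gained and 3.39% lost, beside 16.1% and 2.26% of all listed peaks and 11.8% and 2.42% outside chromosome 14. Foxp4, a relative of Foxp2 found in brain and gut, gained a peak 2.1 kb inside its start (5.9 in knockout, 4.8 in control cells in the authors' deposited table, log2 fold 1.1, FDR 0.0029). It did not pass after centring (adjusted p = 0.164).

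Foxp2, a factor of striatal and speech circuits, was the only member with calls in both directions. In the authors' deposited table an intronic peak 139.1 kb upstream of its assigned start, chr6:15045141-15045540, was at 3.63 in knockout and 1.6 in control cells (log2 fold 2.02, FDR 0.0398). Another, chr6:15192853-15193321 in intron 3 of 18, was at 1.45 in knockout and 3.7 in control cells (-2.25, FDR 0.017). Both are weak peaks, with mean concentrations of 2.94 and 2.98. The strong Foxp2 promoter was at 6.27 in knockout and 6.61 in control cells and was not called in that table (-0.33, FDR 0.242). After centring it lay below the median of all listed peaks (-0.82, adjusted p = 0.000918).

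Sox14 lost an intergenic peak 3.1 kb upstream of its start, chr9:99879230-99879531, with 1.62 in knockout and 3.59 in control cells in the authors' deposited table (log2 fold -1.97, FDR 0.048). Its promoter had a deposited fold of -0.46, as given above, and lay below the median of all listed peaks (centred -0.95, adjusted p = 0.0135). Sox1, the earliest neural SoxB gene, had no call. A pair of its distal peaks, 70.8 and 81.1 kb past the start, were lower in the deposited table without passing (-1.06, FDR 0.0758, and -0.54, FDR 0.132), and both passed as lower after centring (adjusted p = 0.00785 and 0.00183). The SoxC genes Sox4, Sox11 and Sox12, best known from newborn neurons, had 9 listed peaks with folds of both signs and 0 calls. The Sox12 promoter was at 7.42 in knockout and 7.19 in control cells (0.23, FDR 0.368).

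Neural crest, glial and cartilage factors had 2 gained and 0 lost of 38 peaks. That is 5.26% gained, beside 16.1% of all listed peaks and 11.8% of those outside chromosome 14. The gains were at the SoxD genes Sox5 and Sox6, which lack a transactivation domain and act together in cartilage. The Sox6 gain, chr7:115732698-115734453 in its intron 4 of 15, was at 5.53 in knockout and 4.11 in control cells in the authors' deposited table (log2 fold 1.42, FDR 0.00127). The Sox5 gain, over exon 7 of 15, was at 5.36 in knockout and 4.39 in control cells (0.97, FDR 0.0305). Neither passed after centring (adjusted p = 0.065 and 0.447). The largest fold of all 261 members, 3.02 at a weak Sox6 peak in an intron of a transcript with no gene ID, with 2.72 in knockout and -0.3 in control cells, was not called in the deposited table (FDR 0.0508). The Sox6 promoter was at 7.31 in knockout and 7.03 in control cells (0.28, FDR 0.259). Sox8, the SoxE gene with a listed peak, was not called (0.94, FDR 0.168).

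The remaining factors gave 2 gained and 1 lost of 20 peaks (10% and 5%, beside 16.1% and 2.26% of all listed peaks). Outside chromosome 14 the listed shares were 11.8% and 2.42%. Foxj1, the master factor of motile cilia, gained its single listed peak, annotated as downstream of the gene (5.12 in knockout, 4.04 in control cells in the authors' deposited table, log2 fold 1.08, FDR 0.0285). Sox30, a factor of spermatids, gained an intronic peak (3.36 in knockout, 1.15 in control cells, 2.22, FDR 0.0415). Foxe1, a thyroid factor, lost an intergenic peak, chr4:46361458-46361681, 17.8 kb from its start, with 0.0 in knockout and 2.82 in control cells (-2.82, FDR 0.04). Its promoter was not called in that table (6.14 in knockout, 5.72 in control cells, 0.42, FDR 0.25). Of the 16 genes with a single listed peak, 15 had a positive fold and 2, Foxj1 and Foxj2, were called.

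**Figure D4:**
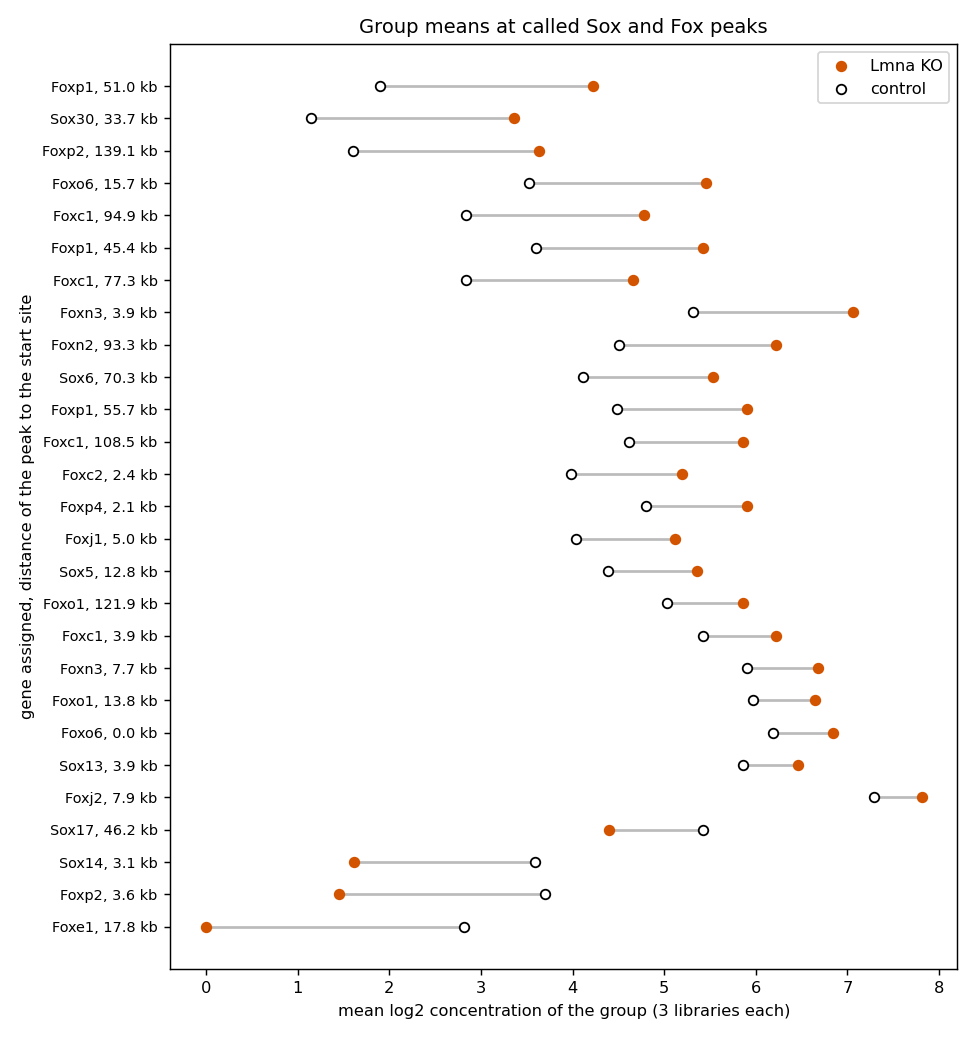
Authors' mean log2 concentration in knockout (filled) and control cells (open) at called peaks of the genes shown, 1 row per peak, with the gene assigned and the distance to the TSS in kb. The gained peaks are ordered by fold from 2.31 to 0.52, and the 4 lost ones, at Sox17, Sox14, Foxp2 and Foxe1, follow.

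Gained peaks lay beyond 3 and 10 kb of a start site about as often as member peaks in general. By the deposited distances, 21 of the 24 gained peaks (87.5%, beside 81.2% of all members) and all 4 lost ones were more than 3 kb from a TSS, and 15 of the gains (62.5%, beside 64.8%) were more than 10 kb away. Within 1 kb of a TSS, 1 of 40 member peaks was gained (2.5%, beside 12.7% of all listed peaks there), although 34 of the 40 had a positive fold (85%, beside 85.8%) and the median fold of 0.39 was close to the 0.4 of all such peaks. Between 1 and 10 kb, 8 of 52 were gained (15.4%, beside 14.4%), from 10 to 100 kb 11 of 115 (9.57%, beside 15.8%), and beyond 100 kb 4 of 54 (7.41%, beside 21.8%). By annotation, 12 of 91 intron peaks (13.2%, beside 16.6%) and 4 of 94 intergenic peaks (4.26%, beside 18.2%) were gained, and 3 of the 94 intergenic peaks were lost (3.19%, beside 2.79%). These backgrounds include chromosome 14, and none of these differences was tested. Of the 107 member peaks in introns or exons, 70 lay in the gene they are assigned to, 12 in another gene with an ID and 25 in a transcript with no gene ID.

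**Figure D5:**
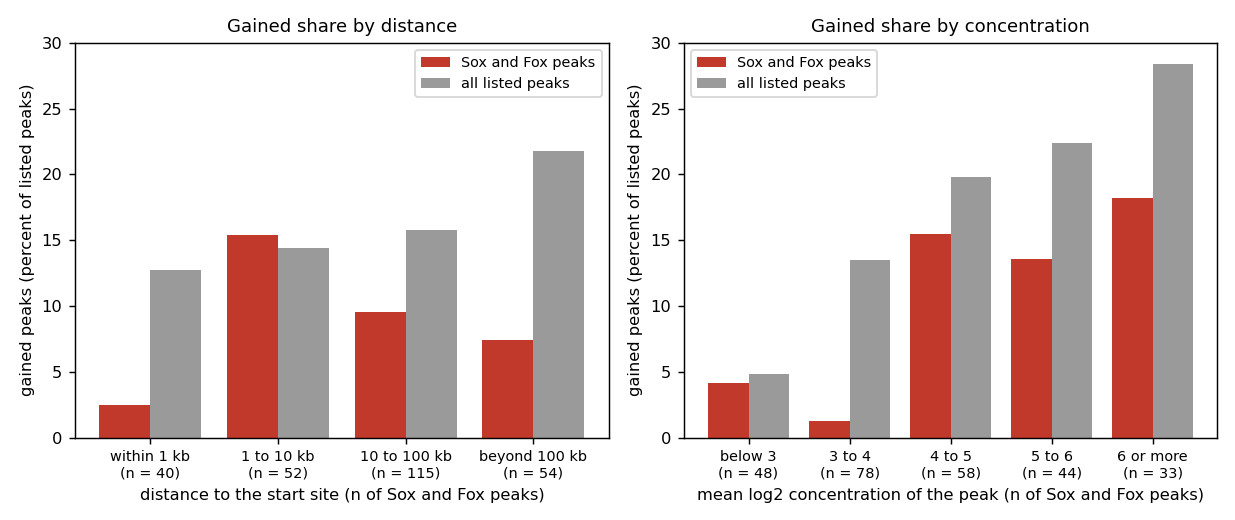
Percent of listed peaks gained at an FDR of 0.05, for Sox and Fox peaks (red) and all listed peaks (grey), by distance to the TSS (left) and by mean log2 concentration of the peak (right), with the number of Sox and Fox peaks under each pair. The shares within 1 kb are 2.5% and 12.7%, and at a concentration of 6 or more 18.2% and 28.4%.

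Strong and weak members differed in direction as listed peaks in general did. Below a mean log2 concentration of 3, 16 of 48 member peaks had a positive deposited fold (33.3%, beside 36.3% of all listed peaks of that strength), and 3 of the 4 lost peaks were there. At 6 or more, 29 of 33 had a positive fold (87.9%, beside 95.5%). Of the 33, 6 were gained (18.2%, beside 28.4% of all listed peaks and 25.1% of those outside chromosome 14). The 10 strongest member peaks within 1 kb of a TSS, at Sox17, Foxo3, Sox12, Foxd2, Sox6, Foxn2, Foxn3, Foxl2, Foxo1 and Foxo6, had deposited folds between 0.23 and 0.64, and only the one at Foxo6 was called. In 8 of these 10 the fold was below the 0.49 of all listed peaks. That is usual for such peaks. The median was 0.41 over all listed peaks at 6 or more, and 0.4 over all those within 1 kb of a TSS.

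Relative to that median, losses outnumbered gains among the members. After centring and retesting, 6 of the 24 gained peaks kept their call, all 4 lost peaks kept theirs, and 28 further peaks passed as lower. The 6 kept gains were at Foxn3, Foxn2, Foxo6, Foxp1 (2 peaks) and Foxc1. That gave 2.3% gained and 12.3% lower, beside 4.47% and 8.93% of all listed peaks. Centring on 0.43, the median of strong peaks outside chromosome 14, left 8 gained (3.07%, beside 5.02%) and 24 lower peaks (9.2%, beside 7.16%). Which zero is right was not tested.

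Partner and related genes outside both families were also counted. All listed peaks had 16.1% gained and 2.26% lost, and those outside chromosome 14 had 11.8% and 2.42%. POU and PAX factors, with which Sox proteins bind DNA in pairs, had 11 gained and 0 lost of 59 listed peaks (18.6%, beside 16.1%). The largest of these gains, assigned to Pax8, a kidney and thyroid factor, lay in an intron of a transcript with no gene ID. It was at 4.88 in knockout and -0.3 in control cells in the authors' deposited table (log2 fold 5.19, FDR 1.62e-06). The same control value of -0.3 was deposited for the weak Sox6 peak above and for a Gatad2b peak. Folds against so low a value are uncertain in size. TLE and other corepressors of forkhead factors had 13 gained and 1 lost of 83 (15.7% gained, beside 16.1%), of which 5 gains were at Tle4 and 2 at Tle1. Other HMG-box genes had 10 gained and 5 lost of 114 (8.77% and 4.39%, beside 16.1% and 2.26%). Tox2 gained a peak beside its promoter (6.07 in knockout, 3.74 in control cells, 2.34, FDR 3.47e-10) and lost 1 elsewhere, while Lef1, a Wnt effector, had 3 lost peaks (-1.85, -2.55 and -2.28) and 0 gained. After centring the gained and lost counts were 1 and 5 for POU and PAX genes, 1 and 6 for corepressors and 2 and 17 for HMG-box genes. Of all listed peaks, 4.47% passed as gained and 8.93% as lower after centring.

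Sox2 and Foxd3, which are active in the pluripotent state, were left out of the members by the rule. The single listed Sox2 peak, its promoter, was at 7.05 in knockout and 6.83 in control cells in the authors' deposited table and was not called (log2 fold 0.22, FDR 0.431). The transcript Sox2ot, which overlaps Sox2, had 1 gained of 8 listed peaks (1.85, FDR 0.035). Foxd3 had 2 gained and 1 lost of 11. All listed peaks had 16.1% gained and 2.26% lost, and those outside chromosome 14 had 11.8% and 2.42%.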

How the data were processed

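One table of the authors' comparison of 3 knockout with 3 control ATAC-seq libraries was used. Per the submitters' processing notes the build was mm10, and the tools included Bowtie2 and Trimmomatic 0.39, Picard 1.119 with SAMtools, MACS2, bedtools 2.28.0 and deepTools, and, for the comparison, DiffBind with DESeq2, and ChIPseeker. Their settings, and whether reads were shifted for Tn5, are unknown here. The log2 concentrations and log2 fold are the authors' deposited group means and their difference (within 0.01 at every peak), and the p-value and FDR are deposited per peak. No depth per library is known and no test across libraries was run.

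The number of tested peaks was estimated as FDR times rank over p. For centring, a standard error was worked out for each listed peak from its fold and deposited p (normal test) and kept, and the offset subtracted. New p-values of the listed peaks were Benjamini-Hochberg adjusted with the number of tests set to 99078. The unlisted peaks were not centred, retested or ranked. The retest was tried on simulated data with every peak present and a known offset. Such a trial does not cover a list cut by p or an offset estimated from that list. Host genes came from RefSeq gene IDs. Peaks were named by rule: the 20 gained and 15 lost of smallest FDR (at most 3 per gene; only 4 were lost), the 6 genes with most listed peaks, the 10 strongest within 1 kb of a TSS, genes with both directions, and peaks nearest the TSS for endoderm, vascular and FoxO lists. Other peaks and the promoters were chosen after their values were seen. Some items are not reported here, though counts over all members include them. Members, lists and rule were chosen with earlier results of these data known. Calculations ran in Python 3.11.15 with SciPy 1.17.1, pandas 2.3.3 and numpy 2.4.6, and plots in matplotlib 3.10.9.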

Additional observations from a re-analysis of the deposited data

How the results depend on the processing

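No paired analysis was possible because only group means were used here, and the planned replicate block, leaving out replicates and a DESeq2 fit were not run for the same reason. Centring on strong peaks and leaving out Foxc1 were chosen after seeing the data. Unless the construction shows it, the cause was not tested. With an FDR of 0.01, gained and lost member peaks numbered 13 and 0 (8 and 0 genes), 1 and 0 for Sox and 12 and 0 for Fox, beside 8.52% gained and 0.549% lost of all listed peaks. Requiring a log2 fold of 1 or more in size left 2 Sox gains. At or above the median concentration, lost peaks were 1 at 1 gene, 1 for Sox and 0 for Fox. Within 3000 bases of a TSS, gained and lost peaks were 3 and 0 at 3 and 0 genes, 0 and 0 for Sox and 3 and 0 for Fox. Centred on 0.49, gained and lower peaks were 6 and 32 at 5 and 14 genes, 0 and 10 for Sox and 6 and 22 for Fox. Centred on 0.43 they were 8 and 24 at 5 and 13 genes, 0 and 8 for Sox and 8 and 16 for Fox. Leaving out chromosome 14, Foxp1 (most listed peaks), Foxc1 (most gained peaks) or peaks beyond 100000 bases kept these counts within 1.5 times. Under the centring on 0.49 and on 0.43, uncalled promoter or nearest peaks changed sign at Sox17 (-0.13, -0.07), Foxo3 (-0.08, -0.02), Sox12 (-0.26, -0.2), Foxd2 (-0.1, -0.04), Sox6 (-0.21, -0.15), Foxn2 (-0.24, -0.18), Foxn3 (-0.17, -0.11), Foxl2 (-0.25, -0.19), Sox7 (-0.15, -0.09), Foxa2 (-0.3, -0.24), Foxf1 (-0.09, -0.03), Foxc2 (-0.24, -0.18), Foxq1 (-0.19, -0.13) and Foxf2 (-0.08, -0.02). Over single peaks and smaller groups, each under each setting, 107 comparisons were unchanged, 52 moved, 43 no longer passed and 1 newly passed (the Foxa3 promoter, centred on 0.49). For groups, unchanged means a count that was equal or within 1.5 times, also where both counts were 0. For single peaks it means the same direction and side of the threshold, which a stricter FDR cannot alter at uncalled peaks. Depth per library is unknown, and 3 of the 4 losses have a mean log2 concentration below 3.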
